A study of Arabidopsis thaliana with 24 samples.

Results

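The SAUR genes (Small Auxin-Up RNA) are a large plant family of short, mostly intronless genes. Transcripts of many, but not all, of them rise within minutes of auxin treatment. The 53 loci described here were given as a list of SAUR identifiers, with no threshold on a measured value. Of 33540 gene identifiers in the data they are 53, and reads were found for every one in some of the 24 samples. They were followed in RNA-seq of whole Arabidopsis thaliana Col-0 wild-type seedlings of 2 ages, 2 days and 7 days, grown in short days and harvested at dawn. At each age the seedlings grew at 22°C or at 27°C (warmth), on medium with 8.5 µM Heatin, a small molecule that the study screened for hypocotyl elongation, or with the solvent alone (mock, 0.1% DMSO). Each of the 8 groups had 3 replicates, and every replicate pooled seedlings of 3 separate batches. All groups were the same genotype, and with whole seedlings a change in a transcript can come from fewer cells of a type or from less RNA per cell, which bulk RNA cannot tell apart.

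SAUR proteins of the SAUR19 group bind and inhibit PP2C.D phosphatases, which otherwise remove the activating phosphate from the plasma membrane H+-ATPases. With the phosphatase inhibited, the pump acidifies the wall and the cell expands, so these genes are known for driving hypocotyl elongation in shade and in warmth. The bHLH factors PIF4 and PIF7, the brassinosteroid factor BZR1 and the auxin response factor ARF6 are known to act together on many of these promoters. SAUR genes sit in tandem arrays, and neighbours are often similar in sequence.

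Values are depth-adjusted read counts, that is, reads per gene divided by a depth factor for each sample, and they are given for replicates 1, 2 and 3 of each group. Comparisons were made with limma on log2(value + 1), and "rose" and "fell" are used only where the Benjamini-Hochberg adjusted p over all genes tested was below 0.1. A log2 fold change on this scale is given with its standard error, and the added 1 makes it smaller for genes with few reads. Samples held 19705950 to 60575036 reads on genes, and the SAUR genes together took 0.0172 to 0.0444% of them. SAUR75 (AT5G27780) had 4 reads in all 24 samples and was tested in no comparison, and SAUR2 (AT4G34780), with 0 to 3 reads a sample, was not tested at 2 days. This left 51 members tested at 2 days and 52 at 7 days and between the ages.

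By position, 35 members fell into 8 clusters of neighbouring loci and 18 stood alone. The largest was the SAUR61 cluster (TAIR10.1 chr1:10301377-10323239), with SAUR61 (AT1G29420), SAUR62 (AT1G29430), SAUR63 (AT1G29440), SAUR64 (AT1G29450), SAUR65 (AT1G29460), SAUR68 (AT1G29490), SAUR66 (AT1G29500) and SAUR67 (AT1G29510), the group around SAUR63 that is known to promote hypocotyl and stamen filament elongation. RefSeq lists AT1G29510 under the symbol SAUR68 and gives SAUR67 as the corrected name, which is used here. The SAUR19 cluster (chr5:5962773-5984308) held SAUR19 (AT5G18010), SAUR20 (AT5G18020), SAUR21 (AT5G18030), SAUR22 (AT5G18050), SAUR23 (AT5G18060) and SAUR24 (AT5G18080). The SAUR29 cluster (chr3:976715-983768) held SAUR29 (AT3G03820), SAUR28 (AT3G03830), SAUR27 (AT3G03840) and SAUR26 (AT3G03850), a group known from natural variation in growth at warm temperature. The SAUR49 cluster (chr4:16577180-16599568) held SAUR49 (AT4G34750), SAUR50 (AT4G34760), SAUR1 (AT4G34770), SAUR2, SAUR3 (AT4G34790), SAUR4 (AT4G34800) and SAUR5 (AT4G34810). The SAUR14 cluster (chr4:18124978-18131284) held SAUR14 (AT4G38840), SAUR15 (AT4G38850) and SAUR16 (AT4G38860), and the SAUR7 cluster (chr2:9083906-9090052) held SAUR7 (AT2G21200), SAUR6 (AT2G21210) and SAUR12 (AT2G21220). The pairs were SAUR51 (AT1G75580) with SAUR52 (AT1G75590) at chr1:28377377-28383769 and SAUR70 (AT5G20810) with SAUR76 (AT5G20820) at chr5:7043758-7047446.

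Levels differed widely within the family. Per kilobase of exon, the mean over the 24 samples was 1501 depth-adjusted reads for SAUR78 (AT1G72430), 1217 for SAUR32 (AT2G46690), 1095 for SAUR50 and 834 for SAUR16. At the low end it was 18.8 for SAUR70, 2.71 for SAUR2 and 0.331 for SAUR75. Some members share sequence, which bears on counting because the reads were 50 bases long. Of the possible 50-base reads, 33.9% were not unique in the genome for SAUR67, 30.0% for SAUR75, 27.1% for SAUR63 and 23.2% for SAUR62, and all 4 share runs with each other. SAUR19 had 18.5%, and SAUR24, SAUR20, SAUR21, SAUR8 and SAUR23 had 2.63 to 7.11%. In the same clusters SAUR66, SAUR22 and SAUR68 had 0.435 to 0.643%, and SAUR61, SAUR64 and SAUR65 had 0%. Reads that could not be placed uniquely were left out of the counts. Members with shared runs are thus counted on their unique stretches, and changes of those with large shares are less certain. Strand was not used in counting, and SAUR60, SAUR8, SAUR7, SAUR6 and SAUR44 overlap another gene of the files, SAUR7 and SAUR6 each other.

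Many SAUR promoters hold the same short motif. The hexamer CATGTG, read on either strand (CACATG on the other), is a core that PIF factors are known to bind, and it stood in the window from 250 bases before to 50 bases after the annotated start of 27 of the 53 members (50.9%), against 12.9% of 27443 promoters in RefSeq TAIR10.1. It was present in 8 of 8 promoters of the SAUR61 cluster, 4 of 4 of the SAUR29 cluster, 3 of 6 of the SAUR19 cluster, 4 of 7 of the SAUR49 cluster and 4 of 18 single members. Other motifs were less frequent: the auxin response elements TGTCTC and TGTCGG stood in 15.1% and 3.77% of member promoters, against 14.2% and 5.12% of all, and the G-box CACGTG in none of the 53, against 7.68% of all. Both strands were searched for each motif, the last bases of a CATGTG site can be the first of a TGTCTC or TGTCGG site, and tandem copies are not independent of each other. Sites of the SAUR61 cluster that lie before the start and read CACATG on the strand of the gene are printed to show how alike the flanks are, 5′ to 3′ on that strand, with the hexamer in capitals (RefSeq, TAIR10.1). A further one in SAUR68, at -243 from the start, is left out because its flank runs past the window.
SAUR61, chr1:10302259-10302288, minus strand: ttcattcacttgCACATGtctgtgtctaaa
SAUR61, chr1:10302199-10302228, minus strand: catacctaaatcCACATGgtcaagtatttt
SAUR61, chr1:10302163-10302192, minus strand: aggtttctaatcCACATGttgtgagtagac
SAUR62, chr1:10303510-10303539, minus strand: gaaatttataccCACATGatcatgtcttct
SAUR63, chr1:10305284-10305313, minus strand: agggttcataccCACATGatcatgtcttct
SAUR64, chr1:10306673-10306702, minus strand: aagattcatactCACATGgtcatgtcttct
SAUR65, chr1:10308333-10308362, minus strand: atttaataccccCACATGgtcatgtttctt
SAUR68, chr1:10319526-10319555, plus strand: cataatcgtatcCACATGatcacgcctttt
SAUR66, chr1:10320963-10320992, plus strand: aattttgataccCACATGatcatgtcttct
SAUR67, chr1:10322369-10322398, plus strand: aggattcataccCACATGatcttgtcttct

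In this cluster the motif mostly read CACATG on the gene's strand, and SAUR62, SAUR63, SAUR66 and SAUR67 had the 14-base run ataccCACATGatc in common, which stood in 4 of 27443 promoters, all 4 of them members. That run was looked for after the promoters had been read. In the SAUR29 and SAUR19 clusters the hexamer mostly read CATGTG on the gene's strand, and the sites before the start that read so are printed to show how far the flanks are shared between and within the clusters.
SAUR29, chr3:977614-977643, minus strand: ttatagcattgtCATGTGatcctatttcta
SAUR28, chr3:980564-980593, minus strand: tgataacaaaacCATGTGaaaaactttgtc
SAUR27, chr3:980829-980858, plus strand: tatagcatttgtCATGTGatatgttcttgg
SAUR26, chr3:982895-982924, plus strand: catgtccttgtaCATGTGatcttgttctct
SAUR26, chr3:982968-982997, plus strand: tgagaacataacCATGTGaggaaaattttg
SAUR19, chr5:5963511-5963540, minus strand: taaagacagaacCATGTGaactcttgctct
SAUR21, chr5:5968298-5968327, plus strand: taaagacagaacCATGTGagctctgttcta
SAUR22, chr5:5975175-5975204, minus strand: tagagacagaacCATGTGaactcttgctct

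SAUR19 and SAUR22 differed at 1 of the 30 bases printed, and SAUR21 differed from them at 7 and 8. These matches describe the letters of the promoters and do not show that a factor binds there.

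**Figure D1:**
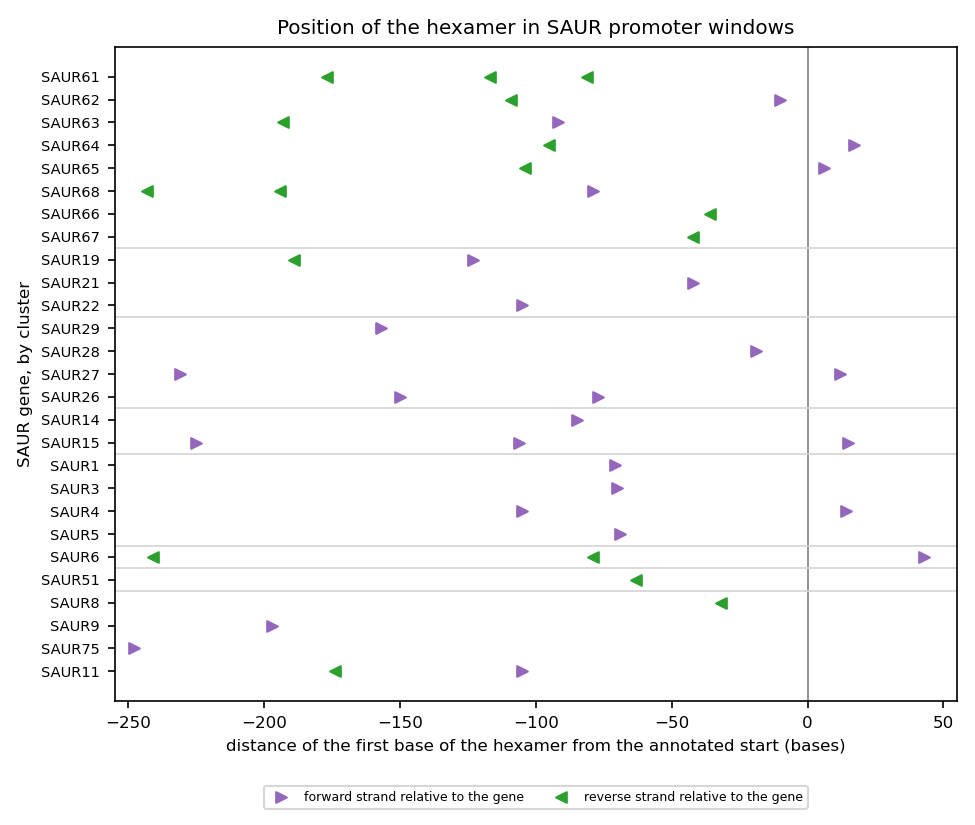
Position of the hexamer CATGTG in the promoter windows of the 27 SAUR genes that hold it, by cluster. The horizontal axis is the distance in bases of its first base from the annotated start (0), and triangles point right where it reads CATGTG on the gene's strand and left where it reads CACATG. Left-pointing marks gather in the SAUR61 cluster, and the SAUR29 cluster has right-pointing marks only.

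Warmth raised most SAUR transcripts in 2-day-old mock seedlings. At 27°C against 22°C, 34 of 51 members rose, 8 fell and 9 did not pass the test, where 35.3% of all genes tested rose and 34.3% fell. The median log2 fold change of the members was 1.15, against 0.01 over all genes, and in 33 members all 3 replicates at 27°C lay above all 3 at 22°C, in 8 all lay below and in 10 the groups overlapped. All 18 members of the SAUR61, SAUR19 and SAUR29 clusters rose, while the SAUR70 cluster held only members that fell. Of the 36 members that share no 50-base run and overlap no gene, 35 were tested, 20 rose and 8 fell, with a median of 0.72. Of the 16 others tested 14 rose and none fell, with a median of 1.53. More members rose than fell in both sets, but all 8 that fell were in the first and its median was lower. In every group at 2 days replicate 3 was the highest of its 3 replicates in 32 to 39 of 52 members.

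**Figure D2:**
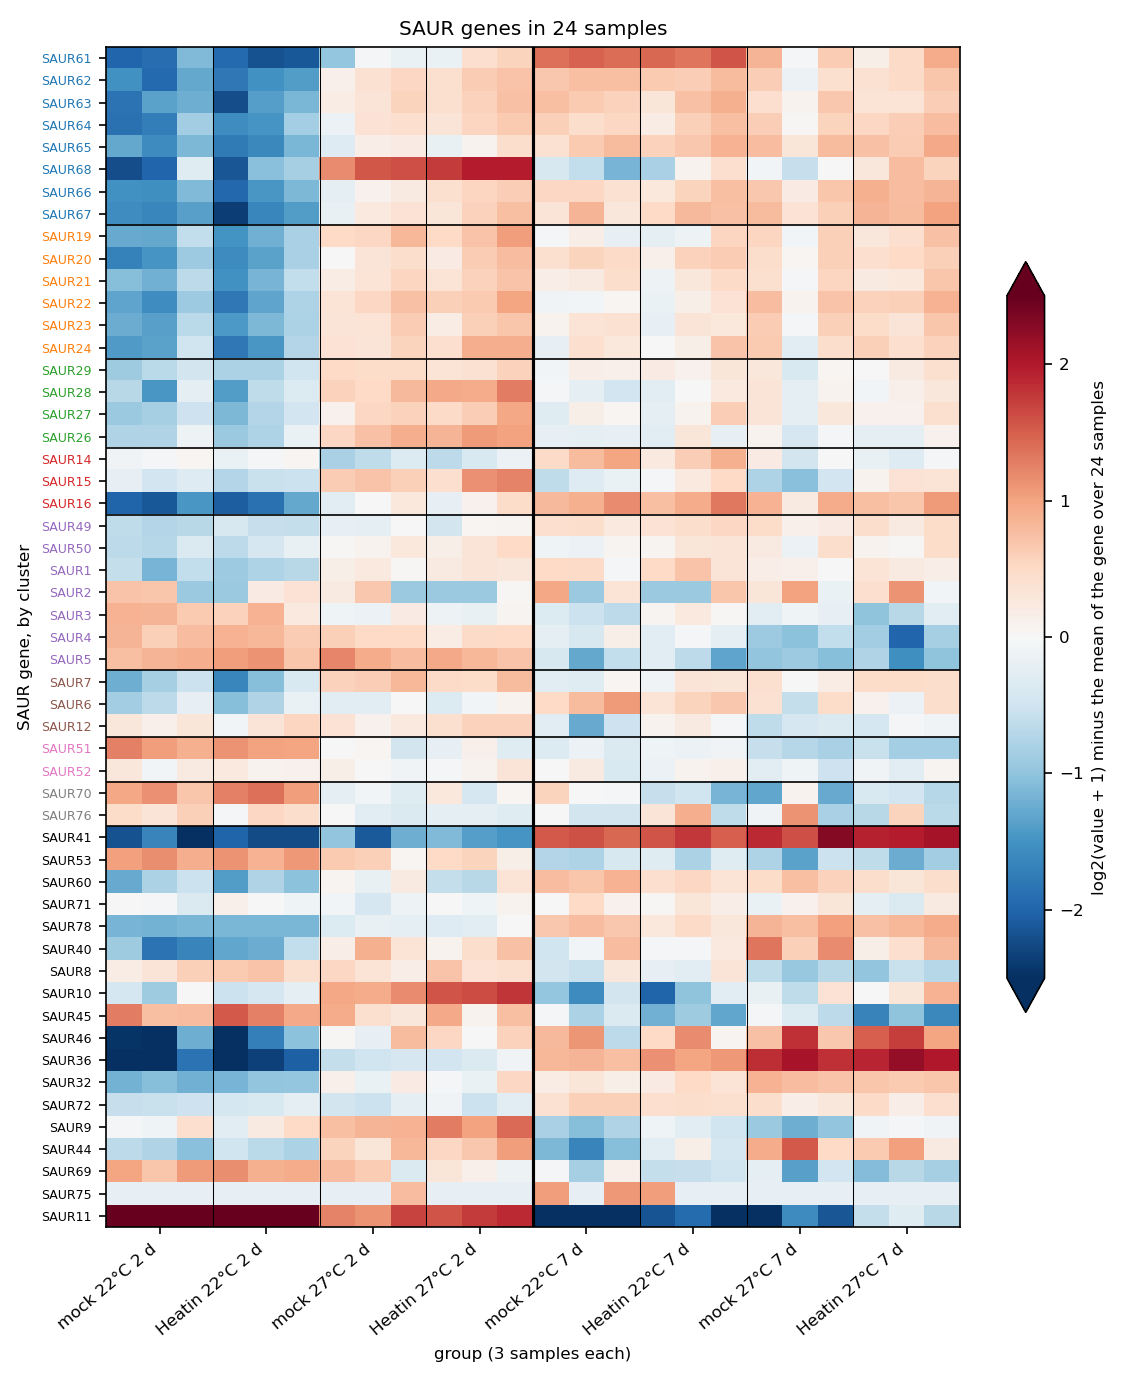
Levels of the 53 SAUR genes in the 24 samples, by cluster. Color is log2(value + 1) minus the mean of the gene over all samples, limited at 2.5 on either side, and columns are 3 replicates of each of the 8 groups, 2 days left of the thick line and 7 days right of it. In the SAUR61, SAUR19 and SAUR29 clusters most values of the 6 samples at 22°C and 2 days are lower than those of the other groups, and SAUR11 is high at 2 days and low at 7 days.

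The SAUR61 cluster had the highest median of the 8 clusters at 2 days, 1.68. SAUR66, its most abundant member, was at 94.8, 93.6 and 127 at 22°C and 233, 293 and 319 at 27°C in 2-day-old mock seedlings, and at 393, 395 and 356 at 22°C and 439, 317 and 441 at 27°C in 7-day-old ones. At 2 days every warm sample lay above every control sample, and at 7 days the groups overlapped. SAUR66 rose by 1.42 ± 0.20 at 2 days (log2 fold change, adjusted p = 8.37e-05), while its value at 7 days was 0.05 ± 0.13 (adjusted p = 0.757). SAUR62, which shares 50-base runs with SAUR63 and SAUR67, was at 48.8, 35.8 and 57.6 at 22°C and 153, 183 and 201 at 27°C at 2 days and at 226, 236 and 237 at 22°C and 217, 128 and 187 at 27°C at 7 days. It rose by 1.91 ± 0.19 at 2 days (adjusted p = 7.41e-06) and fell by 0.43 on the log2 scale at 7 days (-0.43 ± 0.15, adjusted p = 0.0245), a call that was lost without replicate 2 of mock at 27°C (adjusted p = 0.161). SAUR61, a low member with no shared 50-base run, turned in the same way. It was at 4.95, 5.26 and 9.84 at 22°C and 10.99, 21.7 and 19.9 at 27°C at 2 days and at 60.03, 64.2 and 60.3 at 22°C and 40.9, 21.7 and 35.6 at 27°C at 7 days, so that the warm samples lay above all controls at 2 days and below all of them at 7 days. Its log2 fold changes were 1.27 ± 0.33 (adjusted p = 0.00504) and -0.94 ± 0.24 (adjusted p = 0.00328). Across the 8 members the log2 fold change at 2 days ran from 1.27 for SAUR61 to 2.95 for SAUR68, all 8 rising, and at 7 days from -0.94 to 0.51, with SAUR61 and SAUR62 falling and 6 members not past the test. The summed value of the cluster was 353, 349 and 521 at 22°C and 1085, 1401 and 1504 at 27°C at 2 days. At 7 days it was 1606, 1677 and 1574 at 22°C and 1714, 1195 and 1676 at 27°C. At 2 days the sums did not overlap, and at 7 days they did.

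The SAUR19 cluster, whose products are the best known inhibitors of the PP2C.D phosphatases, also rose as a whole at 2 days. SAUR22 was at 134, 114 and 178 at 22°C and 428, 481 and 559 at 27°C in 2-day-old mock seedlings and at 314, 319 and 346 at 22°C and 569, 357 and 549 at 27°C in 7-day-old ones. The groups were apart at both ages. SAUR22 rose by 1.80 ± 0.23 at 2 days (adjusted p = 4.53e-05) and by 0.56 ± 0.16 at 7 days (adjusted p = 0.00631), and was the only member of the cluster called at 7 days. The other members had log2 fold changes from 1.33 (SAUR21) to 1.67 (SAUR19) at 2 days, and from -0.12 (SAUR20) to 0.37 (SAUR19) at 7 days. Summed, the cluster was at 582, 550.1 and 862 at 22°C and 1760.1, 1905 and 2241 at 27°C at 2 days, and at 1498, 1682 and 1685 at 22°C and 2144, 1409 and 2164 at 27°C at 7 days. The low warm sample at 7 days was replicate 2.

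In the SAUR29 cluster, SAUR29 was at 113, 130.4 and 151 at 22°C and 297, 288 and 288 at 27°C at 2 days and at 201, 236 and 229.9 at 22°C and 255, 159.7 and 218 at 27°C at 7 days in mock. The 3 warm samples at 2 days were close together and above all controls, while at 7 days they spread over the range of the controls. SAUR29 rose by 1.15 ± 0.12 at 2 days (adjusted p = 1.36e-05) and had -0.10 ± 0.15 at 7 days (adjusted p = 0.603). SAUR28, SAUR27 and SAUR26 rose by 1.41, 1.16 and 1.27 at 2 days, and no member of the cluster was called at 7 days, where values ran from -0.10 to 0.30.

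The SAUR14 and SAUR49 clusters on chromosome 4 were mixed. SAUR16, which with SAUR14 and SAUR50 is known from light-induced cotyledon opening, was at 171, 159 and 249.9 at 22°C and 573, 691 and 830.5 at 27°C at 2 days and at 1211, 1280.2 and 1570.2 at 22°C and 1258, 805 and 1312 at 27°C at 7 days in mock. The groups were apart at 2 days only, with 1.86 ± 0.24 (adjusted p = 3.98e-05), against -0.29 ± 0.17 at 7 days (adjusted p = 0.163). Its neighbour SAUR14 fell at both ages, by 0.57 ± 0.14 and 0.83 ± 0.17 on the log2 scale, and SAUR15, an early auxin-response marker also called SAUR-AC1, rose by 0.99 at 2 days. SAUR50 was at 605, 579.5 and 737 at 22°C and 967, 1013 and 1142 at 27°C at 2 days and at 888, 865 and 1004 at 22°C and 1111, 864 and 1288 at 27°C at 7 days. It rose by 0.70 ± 0.13 at 2 days (adjusted p = 0.000528), with no overlap of the groups, and had 0.23 ± 0.13 at 7 days (adjusted p = 0.151). SAUR49 and SAUR1 rose by 0.55 and 0.93 at 2 days and SAUR3 fell by 0.80, while SAUR4 and SAUR5 were not called (-0.21 and 0.13). At 7 days SAUR4 fell by 0.69 and no other member of the SAUR49 cluster was called.

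Of the small clusters, the SAUR51 and SAUR70 pairs went down or did not pass the test at 2 days. SAUR51 was at 257, 219.8 and 196 at 22°C and 105, 109.5 and 76.8 at 27°C at 2 days and at 83.2, 96.3 and 81.9 at 22°C and 71.0, 64.3 and 60.02 at 27°C at 7 days in mock. It fell at both ages, -1.21 ± 0.16 (adjusted p = 5.54e-05) and -0.42 ± 0.14 (adjusted p = 0.0223), with the groups apart at both ages. SAUR52 was not called at either age (-0.13 and -0.24). SAUR76, whose protein is known to bind ethylene receptors, was at 90.6, 82.0 and 100.0 at 22°C and 66.0, 54.8 and 51.2 at 27°C at 2 days and at 65.5, 47.2 and 47.4 at 22°C and 61.4, 144 and 37.0 at 27°C at 7 days. At 7 days replicate 2 at 27°C stood far above the other 5 mock samples. Replicate 2 was also the highest of its group with Heatin at 7 days (124 at 22°C and 96.6 at 27°C), but not in mock at 22°C. SAUR76 fell at 2 days (-0.66 ± 0.17, adjusted p = 0.0044, not called at 0.147 with all 24 samples in the fit) and had 0.38 ± 0.45 at 7 days (adjusted p = 0.494), and SAUR70 fell by 1.14 and 0.99. SAUR6, the most abundant of its cluster, was at 519, 602 and 822 at 22°C and 773, 785 and 937 at 27°C at 2 days and at 1334, 1647 and 1979.6 at 22°C and 1227, 622 and 1307 at 27°C at 7 days. The groups overlapped at 2 days and were apart at 7 days. SAUR6 had 0.38 ± 0.21 at 2 days (adjusted p = 0.139) and fell at 7 days (-0.71 ± 0.22, adjusted p = 0.0125), by 0.37 without replicate 2 of mock at 27°C. SAUR7, which overlaps it, rose by 1.53 and 0.38, and SAUR12 was not called at either age.

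Among the single members 10 of 17 tested rose at 2 days and 3 fell, where 35.3% of all genes rose and 34.3% fell, and 8 rose and 2 fell at 7 days, where 28.8% of all genes rose and 32.9% fell. SAUR36 (AT2G45210), known from leaf senescence, rose by 2.15 and 1.11 at the 2 ages, and SAUR32, known from apical hook opening, by 1.20 and 0.57. SAUR40 (AT1G79130) and SAUR41 (AT1G16510), of a group known to promote cell expansion, rose by 1.93 and 0.72 at 2 days and by 0.98 and 0.40 at 7 days, while their relatives SAUR71 (AT1G56150) and SAUR72 (AT3G12830) had -0.07 and 0.14 at 2 days, neither called, and SAUR72 fell by 0.23 at 7 days. SAUR10 (AT2G18010) rose by 1.47 and 0.85, SAUR46 (AT2G37030) rose by 2.49 at 2 days only, and SAUR60 (AT1G20470) rose by 0.90 at 2 days. SAUR53 (AT1G19840) and SAUR69 (AT5G10990) fell by 0.60 and 0.56 at 2 days, SAUR8 (AT2G16580) fell by 0.52 at 7 days, and SAUR45 (AT2G36210) was called at neither age (-0.40 and 0.06). SAUR78, whose protein is also known to bind ethylene receptors, was at 709, 697 and 719 at 22°C and 1246, 1389.6 and 1339 at 27°C at 2 days and at 2533, 2719 and 2513 at 22°C and 2857, 2683 and 3216 at 27°C at 7 days in mock. The groups were far apart at 2 days and overlapped at 7 days. SAUR78 rose by 0.90 ± 0.08 at 2 days (adjusted p = 3.82e-06) and by 0.17 ± 0.07 at 7 days (adjusted p = 0.0646), and the call at 7 days was lost in 3 of 6 fits that left out 1 mock sample, with 0.10 without replicate 3 at 27°C. The single members SAUR44 (AT5G03310), SAUR9 (AT4G36110) and SAUR11 (AT5G66260) are described with the Heatin response.

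**Figure D3:**
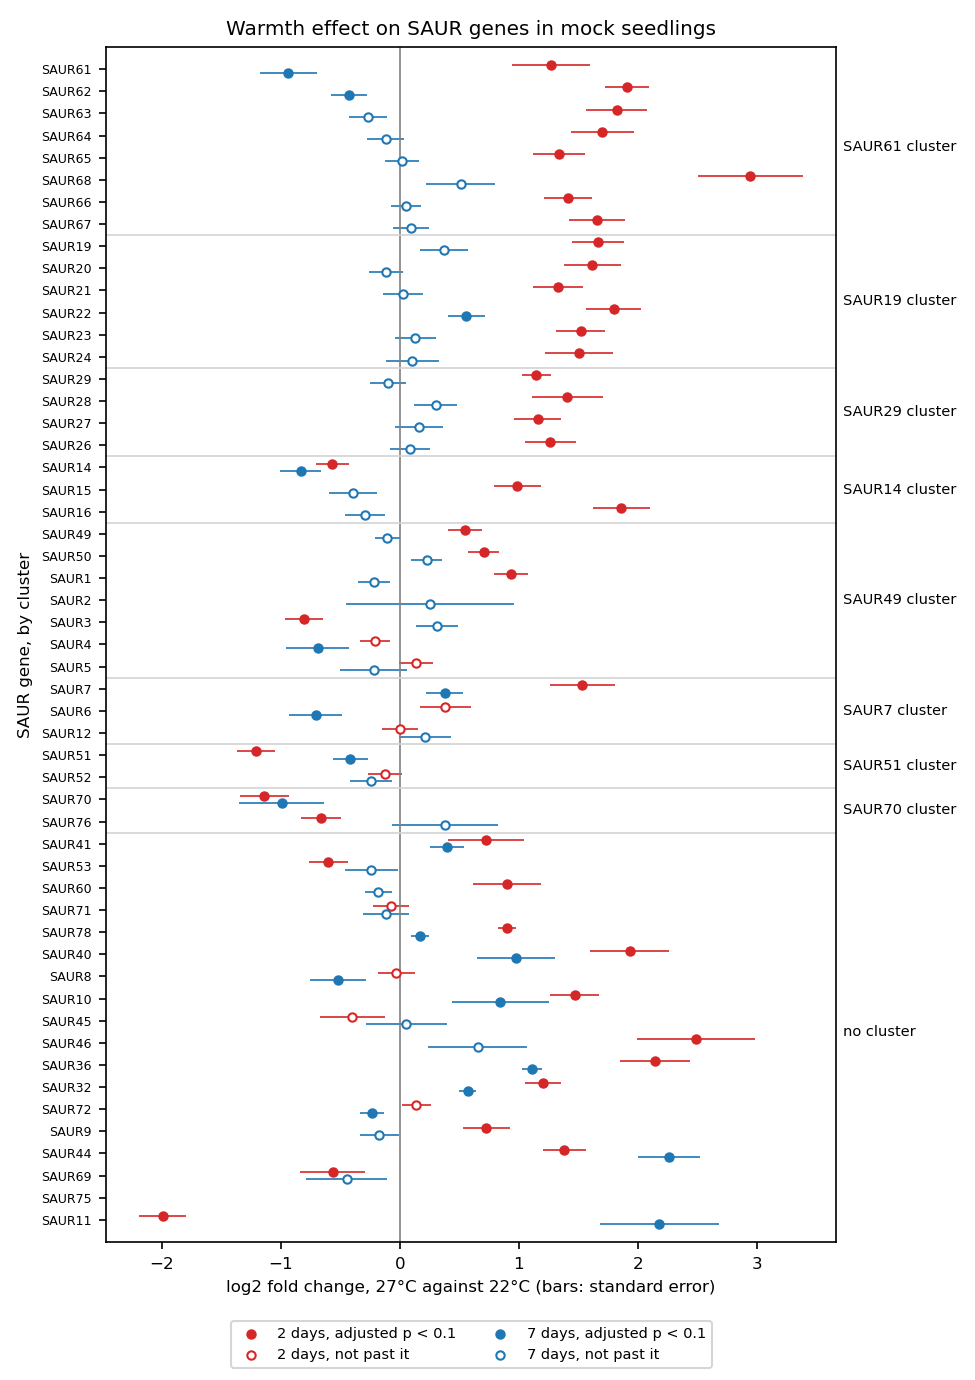
Log2 fold change of each SAUR gene at 27°C against 22°C in mock seedlings at 2 days (red) and 7 days (blue), with standard errors as bars, by cluster. Filled points passed the adjusted p of 0.1. At 2 days all points of the SAUR61, SAUR19 and SAUR29 clusters lie between 1.15 and 2.95, and at 7 days most lie near 0.

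At 7 days the share of members called was below that of all genes. In mock seedlings 10 of 52 members rose, 9 fell and 33 were not called, with a median of 0.04, where 28.8% of all genes rose and 32.9% fell with a median of -0.03. The replicates of 7 members lay all above and of 7 all below, and 38 overlapped. Replicate 2 of mock at 27°C was the lowest of its 3 replicates in 35 of 52 members, and without it 15 members rose and 5 fell. Its summed green tissue markers were also the lowest of the 3 (466618 against 511388 and 604693), and its part in the result was not tested. The tissue markers moved with warmth at this age: 3 green tissue genes (AT1G29920, a light-harvesting gene, and AT1G67090 and AT5G38420, Rubisco small subunits) summed to 1118611 to 1157562 in mock at 22°C and to 466618 to 604693 at 27°C, and 2 root genes (PYK10, AT3G09260, and EXPA7, AT1G12560) to 103431 to 118503 and 61221 to 74190. At 2 days both sums overlapped between the temperatures (490956 to 569898 and 472889 to 585041 for the green tissue genes), but single markers moved. LHCB1.1 (AT1G29920) fell from 101443, 102664 and 140702 to 27133, 11962 and 45061 (-2.22 ± 0.46), EXPA7 fell from 2450.2, 1814 and 1739 to 387, 448 and 148 (-2.74 ± 0.41) and RBCS2B (AT5G38420) rose by 0.89 ± 0.14, while RBCS1A and PYK10, which make up most of the sums, were not called. All 5 of these genes had reads in every sample. Seed storage transcripts, of 8 genes, summed to 7.18 to 26.4 in mock at 22°C and 43.7 to 334 at 27°C at 7 days, and reached 1632 in 1 Heatin-treated sample, with AT1G03890 at 0 in 15 of the 24 samples and AT5G44120 above 0 in all. Their part in the SAUR values was not tested.

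Age alone raised many SAUR genes at 22°C and fewer at 27°C. From 2 to 7 days in mock at 22°C, 32 of 52 members rose and 14 fell, with a median of 0.78, where 38.1% of all genes rose and 38.6% fell. All 14 members of the SAUR61 and SAUR19 clusters rose, from 0.77 for SAUR68 to 3.08 for SAUR61. At 27°C, 13 members rose and 19 fell, with a median of -0.04, where 36% of all genes rose and 35.4% fell. No member of the SAUR19 cluster was called at 27°C, while SAUR29, SAUR28 and SAUR26 fell by 0.49, 0.57 and 0.85 and SAUR68 fell by 1.66. The replicates of the ages were apart in 43 of 52 members at 22°C and in 26 at 27°C. Without replicate 2 of mock at 27°C and 7 days SAUR29 fell by 0.30. The tissue markers moved with age as well. At 22°C all 3 green tissue genes rose (0.38 to 1.62), both root genes fell (-1.26 for PYK10 and -3.92 for EXPA7) and all 8 seed storage genes fell (median -4.34). At 27°C 1 green tissue gene rose and 1 fell, both root genes fell and 6 of 8 seed storage genes fell (median -3.17). Their part in the age result was not tested.

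**Figure D4:**
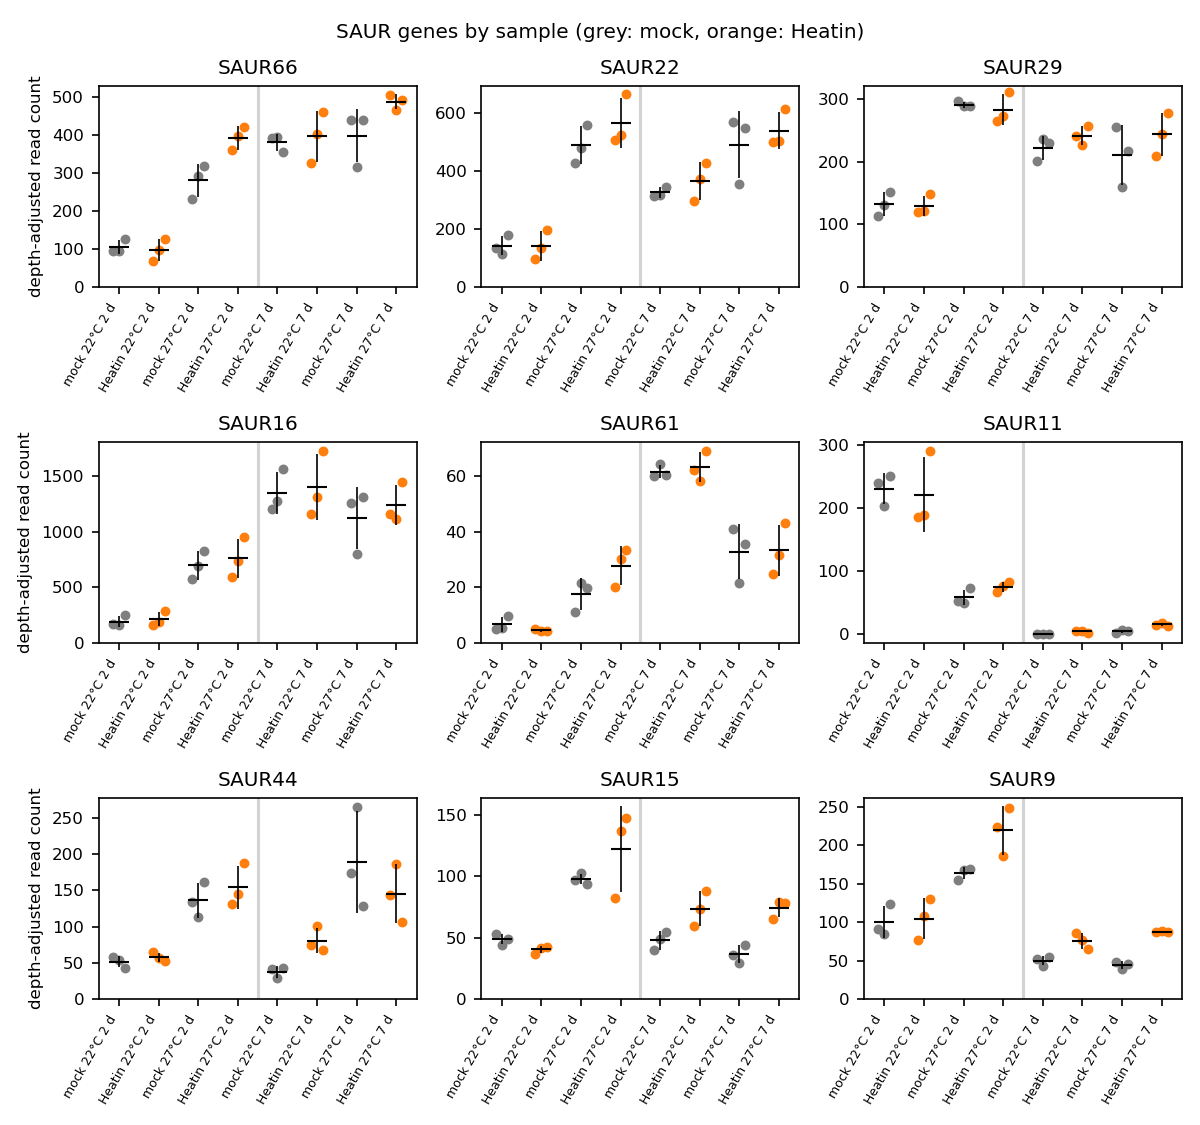
Depth-adjusted read counts of 9 SAUR genes in each sample, by group, with the mean and 1 SD of the 3 replicates (black), mock in grey and Heatin in orange, 2 days left of the line and 7 days right of it. SAUR66, SAUR22 and SAUR29 are lowest in the 6 samples at 22°C and 2 days. SAUR11 has 0 reads in the 3 mock samples at 22°C and 7 days, and SAUR15 and SAUR9 are higher with Heatin at 27°C and 7 days.

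The difference between the warmth effects of the 2 ages was tested directly. In mock the effect was lower at 7 days in 32 of 52 members and higher in 4, with a median difference of -0.98 on the log2 scale, where 22.6% of all genes had a higher and 27.6% a lower effect. It was lower in all 8 members of the SAUR61 cluster, all 6 of the SAUR19 cluster and all 4 of the SAUR29 cluster. For SAUR66 the difference was -1.36 ± 0.25 (adjusted p = 0.000203), for SAUR22 -1.24 ± 0.30 (adjusted p = 0.00248) and for SAUR29 -1.25 ± 0.21 (adjusted p = 6.32e-05). The largest among the clusters were SAUR68 at -2.43, SAUR62 at -2.34 and SAUR61 at -2.21. The effect was higher at 7 days for SAUR11, SAUR3, SAUR44 and SAUR51.

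The same warmth comparison in Heatin-treated seedlings, which contrasts none of the mock samples, gave similar counts. Both comparisons come from the same fit of the 12 samples of an age. Their calls share an estimate of spread for each gene, so the call lists are not independent. At 2 days 35 of 51 members rose and 10 fell, where 34.1% of all genes rose and 34.4% fell, with a median of 1.15. The 34 members that rose in mock all rose again, which is 100% of the mock list and 97.1% of the Heatin list, and the 8 that fell in mock were 80% of those that fell with Heatin. SAUR66 was at 69.4, 98.6 and 126 at 22°C and 360.2, 399 and 422 at 27°C with Heatin at 2 days. SAUR22 was at 95.9, 133 and 196 at 22°C and 509, 526 and 666 at 27°C, and SAUR29 at 120.4, 121 and 148 at 22°C and 265, 273 and 311 at 27°C. The temperatures did not overlap in any of the 3. Their log2 fold changes were 2.04 ± 0.20, 2.04 ± 0.23 and 1.12 ± 0.12. SAUR6, not called in mock, rose by 0.56, a call lost in 3 of 6 fits that left out 1 sample, and SAUR4 and SAUR45 fell by 0.39 and 0.64. At 7 days with Heatin, 12 members rose and 6 fell, where 29.4% of all genes rose and 33.5% fell. Of these, 8 and 5 had also risen or fallen in mock, 80% and 55.6% of the mock lists and 66.7% and 83.3% of the Heatin lists. SAUR66, SAUR68, SAUR19 and SAUR23 rose with Heatin (0.31, 0.63, 0.42 and 0.36) and were not called in mock, the call of SAUR66 being lost in 3 of 6 fits that left out 1 sample (adjusted p 0.101 to 0.257). The test of the Heatin effect between the temperatures, given with the Heatin comparisons, called none of these 4.

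In the other members described by sample, the Heatin-treated seedlings gave these values. SAUR62 was at 39.8, 48.4 and 52.5 at 22°C and 186, 219 and 232 at 27°C at 2 days and at 223, 217 and 243 at 22°C and 184, 196 and 228 at 27°C at 7 days. The temperatures were apart at 2 days, where it rose by 2.16 ± 0.19, and overlapped at 7 days. SAUR61 was at 5.10, 4.18 and 4.38 at 22°C and 19.9, 30.3 and 33.3 at 27°C at 2 days and at 62.3, 58.3 and 69.0 at 22°C and 24.9, 31.7 and 43.3 at 27°C at 7 days. As in mock, its warm samples lay above all controls at 2 days and below all of them at 7 days, with 2.35 ± 0.33 and -0.94 ± 0.24, both called. At 7 days SAUR22 was at 298, 373 and 429 at 22°C and 500.4, 505 and 614 at 27°C and SAUR29 at 241, 227 and 257 at 22°C and 209, 244 and 277 at 27°C. SAUR22 was apart and rose by 0.57 ± 0.16, and SAUR29 overlapped. SAUR16 was at 164, 189 and 284 at 22°C and 598, 739.6 and 952 at 27°C at 2 days and at 1159, 1318 and 1731 at 22°C and 1163, 1116 and 1449 at 27°C at 7 days. SAUR50 was at 608, 713 and 842 at 22°C and 1061, 1193 and 1338 at 27°C at 2 days and at 1002, 1174 and 1183 at 22°C and 1009, 975 and 1307 at 27°C at 7 days. Both were higher in every warm sample at 2 days, rising by 1.85 ± 0.24 and 0.74 ± 0.13, and both overlapped at 7 days. SAUR51 was at 234, 213 and 212 at 22°C and 92.2, 116 and 85.6 at 27°C at 2 days and at 98.8, 95.5 and 100.4 at 22°C and 71.7, 58.6 and 58.8 at 27°C at 7 days. It was lower in every warm sample at both ages, -1.17 ± 0.16 and -0.64 ± 0.14, both called. SAUR76 was at 64.3, 95.0 and 89.8 at 22°C and 56.1, 55.8 and 53.2 at 27°C at 2 days and at 82.6, 124 and 41.8 at 22°C and 40.5, 96.6 and 40.8 at 27°C at 7 days. SAUR6 was at 453, 565 and 840.0 at 22°C and 748, 907 and 1012 at 27°C at 2 days and at 1197, 1396 and 1501 at 22°C and 1015, 855 and 1290.2 at 27°C at 7 days. SAUR76 was apart and fell at 2 days (-0.56 ± 0.17) and overlapped at 7 days, and SAUR6 overlapped at both ages. SAUR15 was at 36.7, 41.8 and 42.3 at 22°C and 82.3, 137 and 147 at 27°C and SAUR9 at 76.5, 108 and 129.9 at 22°C and 224, 186 and 248 at 27°C with Heatin at 2 days. SAUR44 was at 64.3, 56.8 and 51.8 at 22°C and 130.9, 144 and 187 at 27°C and SAUR78 at 715, 717 and 717 at 22°C and 1269, 1306 and 1574 at 27°C at that age. All 4 were higher in every warm sample and rose, by 1.54 ± 0.20, 1.08 ± 0.20, 1.39 ± 0.18 and 0.94 ± 0.08.

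Few SAUR genes were called for Heatin itself. At 2 days no member was called at either temperature, with a background of 0.00432% of genes tested at 22°C and 0.00432% at 27°C, 1 gene each. At an unadjusted p below 0.05 there were 0 members at 22°C by limma, edgeR and DESeq2, and at 27°C 2 by limma, 4 by edgeR and 3 by DESeq2. Same-numbered samples deviated together in these 2 comparisons, and a fit blocked on those numbers again called no member. In it 1 member at 22°C and 9 at 27°C had an unadjusted p below 0.05, and 6 and 15 of all genes were called. The median at 27°C was 0.16, with all 8 members of the SAUR61 cluster and all 6 of the SAUR19 cluster on the positive side and none called. At 22°C the median was -0.004, with 3 of 8 and 1 of 6 members of these clusters on the positive side. Signs of members of a cluster are not independent of each other. At 7 days and 22°C, 2 of 52 members rose and 1 fell, where 1.39% of all genes rose and 1.08% fell. At 7 days and 27°C, 3 members rose and none fell, where 2.32% of all genes rose and 3.1% fell. With 52 members, counts of 1 to 3 are small numbers to set beside these shares. At 7 days an unadjusted p below 0.05 was found for 14 members at 22°C and 7 at 27°C by limma. By edgeR there were 10 and 8, and by DESeq2 12 and 6. The share of all genes with an unadjusted p below 0.05 was not counted at either age. The median absolute log2 fold change of the members was 0.17 at 22°C and 0.16 at 27°C, against 0.10 and 0.11 over all genes. None of the 18 members of the SAUR61, SAUR19 and SAUR29 clusters was called at either temperature, with log2 fold changes from -0.14 (SAUR23) to 0.63 (SAUR68) at 22°C and from 0.01 (SAUR26) to 0.75 (SAUR68) at 27°C. SAUR66, for example, was at 328, 403 and 462 with Heatin at 22°C and at 505, 467 and 494 with Heatin at 27°C, overlapping mock at 22°C only. SAUR66 had 0.05 ± 0.13 and 0.31 ± 0.13.

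SAUR9, whose protein is known to inhibit PP2C.D phosphatases, and SAUR15, known to promote root formation, rose with Heatin at 27°C in every alternative fit. Of the tissue markers, EXPA7 fell in the same comparison, from 24.6, 40.6 and 38.4 in mock to 14.03, 7.92 and 17.1 with Heatin (-1.37 ± 0.26, adjusted p = 0.00682), PYK10 and the 3 green tissue genes were not called, and its part in the SAUR values was not tested. SAUR15 was at 39.6, 49.1 and 54.6 in mock and 59.6, 73.2 and 87.8 with Heatin at 22°C, and in the same order at 35.5, 29.3 and 44.0 and 65.5, 79.2 and 78.3 at 27°C, all at 7 days. At both temperatures every Heatin sample lay above every mock sample. SAUR15 rose at 27°C by 1.03 ± 0.20 (adjusted p = 0.00789), and its value at 22°C was 0.61 ± 0.20 (adjusted p = 0.186). SAUR9 was at 51.8, 43.4 and 54.6 in mock and 85.3, 76.9 and 64.8 with Heatin at 22°C, and in the same order at 47.8, 38.7 and 46.1 and 87.3, 88.7 and 87.3 at 27°C. It too was higher in every Heatin sample, and it rose at 27°C by 0.98 ± 0.16 (adjusted p = 0.00234) against 0.59 ± 0.16 at 22°C (adjusted p = 0.1003). At 2 days in mock SAUR15 was at 53.1, 44.2 and 49.2 at 22°C and 96.5, 102 and 93.9 at 27°C, and SAUR9 at 90.6, 85.2 and 123 at 22°C and 155, 167 and 169 at 27°C. Both rose with warmth at that age (0.99 ± 0.20 and 0.73 ± 0.20) with no overlap of the groups, and neither was called for warmth in mock at 7 days.

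SAUR11 stood apart from the rest of the family. It was at 239, 202 and 249.9 in mock at 22°C, 52.5, 48.6 and 72.0 in mock at 27°C, 185, 188 and 289.7 with Heatin at 22°C and 66.1, 75.2 and 81.8 with Heatin at 27°C at 2 days, and every warm sample lay below every sample at 22°C. It fell with warmth by 1.99 on the log2 scale in mock. At 7 days it had 0 reads in all 3 mock samples at 22°C, 3, 4 and 1 reads with Heatin at 22°C, 1, 7 and 6 in mock at 27°C and 9, 11 and 16 with Heatin at 27°C. For fold values the group of 0 was set at a floor of 3 reads and the other group at its observed mean. SAUR11 was then 150-fold lower at 7 days than at 2 days in mock at 22°C. At 7 days it was 2.65-fold higher in mock at 27°C and 2.42-fold higher with Heatin at 22°C. Counting error of the other group, 14 reads in mock at 27°C and 8 with Heatin at 22°C, is not in these values. At 27°C the mean was 14.8 with Heatin and 4.06 in mock. limma gave 2.18 ± 0.50 for Heatin at 22°C (adjusted p = 0.0415) and 1.79 ± 0.50 at 27°C (adjusted p = 0.0621), but both calls rest on few reads. The first was lost with voom (0.113), with edgeR (0.127), with a pseudocount of 5 (0.16), with only the compared groups in the fit (0.211) and without mock replicate 2 or 3 or Heatin replicate 1 or 2 (0.104 to 0.133), and the second with DESeq2 (0.177), with a pseudocount of 0.5 (0.102) and in 5 of 6 fits that left out 1 sample (0.123 to 0.27), all adjusted p.

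SAUR44 rose with Heatin at 22°C and SAUR78 fell. SAUR44 was at 40.9, 28.3 and 43.1 in mock and 74.5, 100.5 and 66.9 with Heatin at 22°C, and in the same order at 173, 266 and 128 and 143, 187 and 106 at 27°C. The groups were apart at 22°C and overlapped at 27°C, where each Heatin sample lay below the mock sample of the same number. SAUR44 rose by 1.09 ± 0.26 (adjusted p = 0.0523), a call lost with voom (0.352), with edgeR (0.178) and without mock replicate 2 (0.231), Heatin replicate 1 (0.119) or Heatin replicate 2 (0.173), and had -0.35 ± 0.26 at 27°C. In mock at 2 days it was at 57.3, 53.6 and 43.2 at 22°C and 134, 113 and 161 at 27°C. It rose with warmth in mock at both ages, by 1.38 ± 0.18 at 2 days and 2.26 ± 0.26 at 7 days, with the groups apart at each. SAUR78 was at 2533, 2719 and 2513 in mock and 1891, 2212 and 1926 with Heatin at 22°C, and in the same order at 2857, 2683 and 3216 and 2639, 2819 and 2999.9 at 27°C. Every Heatin sample lay below every mock sample at 22°C, and the groups overlapped at 27°C. SAUR78 fell at 22°C (-0.37 ± 0.07, adjusted p = 0.0215, lost at 0.12 without mock replicate 2 and at 0.107 without Heatin replicate 1), and had -0.05 ± 0.07 at 27°C.

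The Heatin effect differed between the temperatures for 1 of 52 members, where 0.783% of all genes were called in either direction. This was SAUR3, at 69.6, 60.4 and 56.0 in mock and 92.0, 104 and 89.9 with Heatin at 22°C, and in the same order at 73.7, 81.3 and 76.1 and 43.7, 53.8 and 72.6 at 27°C. Every Heatin sample lay above every mock sample at 22°C and below every one at 27°C. The difference for SAUR3 was -1.08 ± 0.25 (adjusted p = 0.0885), made of 0.62 ± 0.18 at 22°C and -0.46 ± 0.18 at 27°C, neither of them called, and it was not called with voom, with edgeR, with no filter on low values, with all 24 samples in the fit or in 8 of 12 fits that left out 1 sample. For SAUR44 it was -1.44 ± 0.37 (adjusted p = 0.122) and for SAUR66 0.26 ± 0.18 (adjusted p = 0.586). The 2 Heatin comparisons at 7 days contrast separate samples but come from the same fit and share its estimate of spread. Each also shares its mock samples with the warmth comparison in mock.

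**Figure D5:**
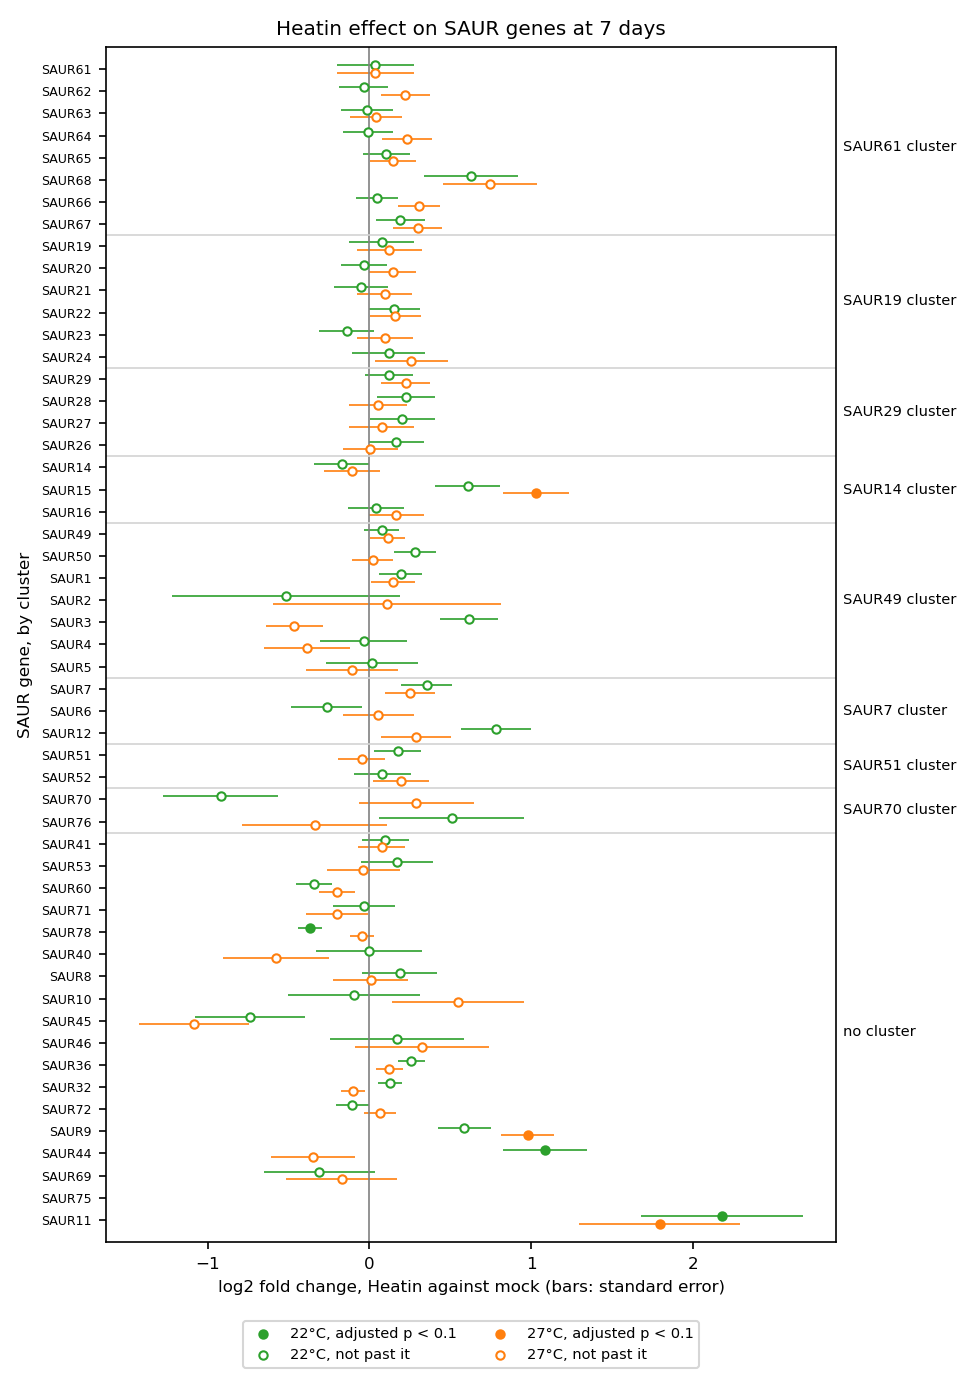
Log2 fold change of each SAUR gene with Heatin against mock at 7 days, at 22°C (green) and 27°C (orange), with standard errors as bars, by cluster. Filled points passed the adjusted p of 0.1. These are SAUR11, SAUR44 and SAUR78 at 22°C and SAUR11, SAUR15 and SAUR9 at 27°C.

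The partners of SAUR proteins were measured in the same samples. Of the 9 PP2C.D phosphatase genes, 7 rose and 1 fell with warmth in 2-day-old mock seedlings, and 4 rose and 1 fell at 7 days, where 35.3% of all genes rose and 34.3% fell at 2 days and 28.8% and 32.9% at 7 days, with PP2C.D7 (AT5G66080) rising by 0.95 and 0.45. Of 10 plasma membrane H+-ATPase genes tested, 7 rose and 1 fell at 2 days and 3 rose and 4 fell at 7 days, and AHA1 (AT2G18960) and AHA2 (AT4G30190), the main pumps of the seedling, had 0.44 and 0.38 at 2 days, both called, and -0.06 and -0.39 at 7 days, where only AHA2 fell. Of the 9 upstream factors, 6 rose and 1 fell at 2 days and 3 rose and 3 fell at 7 days. PIF4 (AT2G43010) rose by 1.99 and 1.17, PIF7 (AT5G61270) rose by 1.46 at 2 days and fell by 1.15 at 7 days, and BZR1 (AT1G75080) rose by 0.33 at 2 days only. With Heatin at 7 days no gene of these 3 lists was called at 22°C or at 27°C, where 1.39% and 2.32% of all genes rose and 1.08% and 3.1% fell.

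Members with and without the promoter hexamer differed little in their warmth calls at 2 days. With CATGTG, 18 of 26 tested members rose and 4 fell, and without it 16 of 25 rose and 4 fell, with median log2 fold changes of 1.21 and 0.90. Over all genes, 37.8% of those with the hexamer rose and 31.5% fell at 2 days, and 35.1% of those without it rose and 36.0% fell. At 7 days 2 of 26 members with the hexamer rose and 7 fell, and 8 of 26 without it rose and 2 fell. Over all genes at 7 days, 28.0% of those with the hexamer rose and 35.2% fell, and 29.3% of those without it rose and 33.9% fell. Members of a cluster share ancestry and promoter sequence, so these counts are a description and were not tested.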

How the data were processed

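The authors sequenced mRNA of 24 seedling samples as single-end reads of 50 bases, aligned them to the TAIR10 genome using TopHat, obtained a count for each gene from HTSeq-count regardless of strand, dropped CPuORF annotations and scaled every sample for depth by DESeq. The deposited signal values are these depth-adjusted read counts. Dividing a sample's values by what a single read was worth there (0.598 to 2.09) gave whole reads for 100% of values, within 0.01 reads. Reads that HTSeq could not place uniquely (6.19 to 12.4% of reads on genes), ambiguous reads (1.06 to 1.28%) and reads outside genes (0.727 to 0.981%) stand in the summary lines of the files and were left out.

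From the deposited values log2(value + 1) was tested with limma 3.58.1 in R 4.3.3, with 1 mean per group, a mean-variance trend and Benjamini-Hochberg adjustment over genes with a mean of at least 1 (23140 at 2 days, 23252 at 7 days, 23427 over both ages). The 12 samples of an age were fitted together, and all 24 for comparisons between ages. limma was used because depth-adjusted values are not whole counts. The recovered reads were tested as alternatives with voom, edgeR 4.0.16 and DESeq2 1.42.0, beside pseudocounts of 0.5 and 5, no filter or a minimum mean of 10, TMM scaling, a threshold of 0.05, other sets of samples in the fit, a replicate block, and each sample left out in turn. Pairing was checked by the correlation of same-numbered samples' deviations from their group means. It was taken as given where all 3 pairs were over 0.1. This held for Heatin against mock at 2 days (0.11 to 0.36 at 22°C, 0.14 to 0.37 at 27°C) and for no other comparison within an age. Heatin and mock samples at 7 days had lower correlations (0.04 to 0.07 at 22°C, 0.05 to 0.10 at 27°C). Their best match still had the same number in 6 of 6 samples at each temperature, so a weaker tie is possible there. This pairing comes from the data, not from the labels. The scripts were tested on simulated data. Labels do not say whether replicates of a group came from separate sowings, so p-values measure the spread between these samples, which may be partly technical.

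Gene names, clusters (loci of a chromosome with numbers at most 50 apart), 50-base uniqueness and promoters came from RefSeq TAIR10.1, which held 32835 of the 33540 gene identifiers. Values in every sample are given for the most abundant member of each cluster, for members called for Heatin at 7 days and for members called in opposite directions for warmth at the 2 ages; SAUR3 and other members with values were named after these were seen. No measured value is part of the rule for the members, but they and the gene lists were chosen with earlier results of these data known.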

Additional observations from a re-analysis of the deposited data

Results flagged for a closer look

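The warmth effect in mock seedlings differed between 7 and 2 days, by limma's test of the difference itself, in 36 of 52 SAUR genes tested. Listed here are 14 of them, which are all the genes chosen by rule for description by sample except SAUR76. SAUR11, SAUR61 and SAUR62 met the rule partly through this same test, so their calls are no further support for it. Over all genes 22.6% had a higher and 27.6% a lower effect at 7 days. On the log2 scale the effect at 7 days minus that at 2 days was -2.339 for SAUR62, -2.208 for SAUR61, -2.153 for SAUR16, -1.382 for SAUR15, -1.363 for SAUR66, -1.246 for SAUR29, -1.236 for SAUR22, -1.089 for SAUR6, -0.9004 for SAUR9, -0.7309 for SAUR78 and -0.4776 for SAUR50. It was positive for SAUR51 at 0.7922, for SAUR44 at 0.8817 and for SAUR11 at 4.175, the last of which depends on the pseudocount because all 3 mock samples at 22°C and 7 days had 0 reads. The difference for SAUR50 was lost in 5 of 12 fits that left out 1 sample and that for SAUR44 in 4 of 12.

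The Heatin effect differed between the temperatures at 7 days in SAUR3, by -1.08 at 27°C minus 22°C. It was 1 of 52 members tested, where 0.783% of all genes were called, and its Heatin effect was called at neither temperature alone. The difference was not called in 8 of 12 fits that left out 1 sample. Nor was it called with voom, with edgeR, with no filter or with all 24 samples in the fit.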

How the results depend on the processing

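Of 1608 values of single SAUR genes under alternative settings, 1540 kept their call and direction, 68 lost the call and 0 reversed. Only comparisons called in the main fit were scored, for genes named in part because they were called, so few reversals could occur. Settings that filtered a gene out or gave it no adjusted p were not scored, as for SAUR11 at 7 days with a minimum mean of 10. The tally can therefore overstate how stable the calls are. Of 450 counts of SAUR genes called, 418 stayed within 1.5 times the reported count. A count of 0 that stayed at 0, as for Heatin at 2 days, was scored among these, so this tally too can overstate stability. The counts that moved were mostly small counts of Heatin at 7 days, with some of warmth at 7 days. At 22°C the number that rose was 0 with voom and 0 with edgeR, 1 with DESeq2 and 1 at an adjusted p below 0.05. At 27°C the number that fell was 1 with a pseudocount of 5, 1 with no filter and 1 with all 24 samples in the fit. The number with a lower Heatin effect at 27°C than at 22°C was 0 with no filter, with voom, with edgeR, at an adjusted p below 0.05 and with all 24 samples. Warmth with Heatin at 7 days raised 7 genes with all 24 samples in the fit. The cause of these changes was not tested. Leaving out 1 sample at a time, Heatin at 22°C raised 0 to 3 genes and lowered 0 to 1, Heatin at 27°C lowered 0 to 1, the difference between temperatures held 0 to 1, and warmth in mock at 7 days lowered 5 to 10 and raised 7 to 15, with 5 and 15 without replicate 2 of mock at 27°C. Warmth in mock at 2 days raised 33 to 34 and lowered 7 to 8.

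At 2 days 14 of 18 same-numbered pairs of samples correlated above 0.1 (0.01 to 0.37) and at 7 days 1 of 18 (-0.08 to 0.10), so the numbers tied samples across groups in part at 2 days. In mock at 22 and 27°C the best match had the same number in 4 of 6 samples at 2 days and 3 of 6 at 7 days. Between Heatin and mock at 7 days it had the same number in 6 of 6 samples at each temperature, so numbers may tie these samples weakly too. A replicate block called 3 SAUR genes for Heatin at 27°C and 7 days. With a replicate block the SAUR genes called were 43 and 25 for warmth in mock at 2 and 7 days and 45 and 22 with Heatin, Heatin at 22°C and 7 days raised 5, and 2 had a lower Heatin effect at 27°C. Counting error limits SAUR11, SAUR2 and SAUR75 most.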
